A study of Mus musculus with 8 samples.

Results

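Methylation was read along 9 complement genes in mouse liver: C3, Hc (the mouse gene for complement C5), C6, C8a, C8b, C9, Cfi, Cfb and Mbl1. The genes were taken as a given list. For each one, every listed cytosine inside its RefSeq span or within 5000 bases of either side was used. These were 9064 of the 30729668 positions listed on the 15 placed chromosomes held, and 9 of the 14811 protein-coding genes there. Each position carries the percent of methylation at 1 cytosine of a CpG.

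All 8 libraries were whole-genome bisulfite libraries of liver DNA from male C57BL/6J mice labelled as wild type in genotype. The mice were 8 weeks old at purchase and were then kept for 28 weeks on their diet. The 4 libraries titled NASH (nonalcoholic steatohepatitis) stand for mice on HFHC, a fat-, cholesterol- and fructose-rich diet, and the 4 titled WT, called ND here, for mice on a normal diet. In the labels' treatment field the groups are swapped relative to the titles; titles and column names were followed here, and each direction below would turn around if that field were right. Whether each library is a different mouse is not stated, so p-values measure the spread between these libraries.

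Complement is a cascade of plasma proteins, most of them secreted by hepatocytes. Lectins such as mannose-binding lectin recognise microbial sugars, and C3 convertases, which in the alternative pathway contain factor B, cleave C3. C5, C6, the C8 chains and C9 then assemble, together with C7, into the membrane attack complex, while factor I degrades the activated forms of C3 and C4. In mammals a gene active in a tissue usually has low methylation around its start.

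Over the whole span with flanks, all 9 genes had a higher mean level in NASH than in ND, and 6 of them rose past the threshold, which was a Benjamini-Hochberg adjusted p under 0.05 in limma over all gene spans. The 6 were Cfb, Mbl1, C8a, C3, Hc and Cfi. C9, C8b and C6 did not pass. Of all 14683 spans tested, 9.33% were called in either direction and 5.99% were called higher. The median difference was 2.62 percentage points over the 9 genes and -0.28 over all spans, of which 39.8% were higher in NASH. In 7 of the 9 genes the NASH and ND libraries did not overlap with NASH higher, against 9.49% of all spans. With every 0 in the table left out, none of the 9 spans was called, and 8 of the 9 remained higher. In that setting 153 of all 14557 spans were called higher and 478 lower, and 25.4% were higher in NASH.

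Averaged over the 9 spans, the 4 NASH libraries were at 68.8%, 68.4%, 69.5% and 70.0%, and the 4 ND libraries at 64.6%, 65.5%, 66.3% and 64.4%. The NASH and ND libraries did not overlap. The means were 69.2% ± 0.728 and 65.2% ± 0.892 (SD, n = 4 each). No test was made of this average, because the genes were chosen with earlier results known. In bulk liver, a smaller share of hepatocyte DNA and a change inside hepatocytes cannot be told apart.

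**Figure D1:**
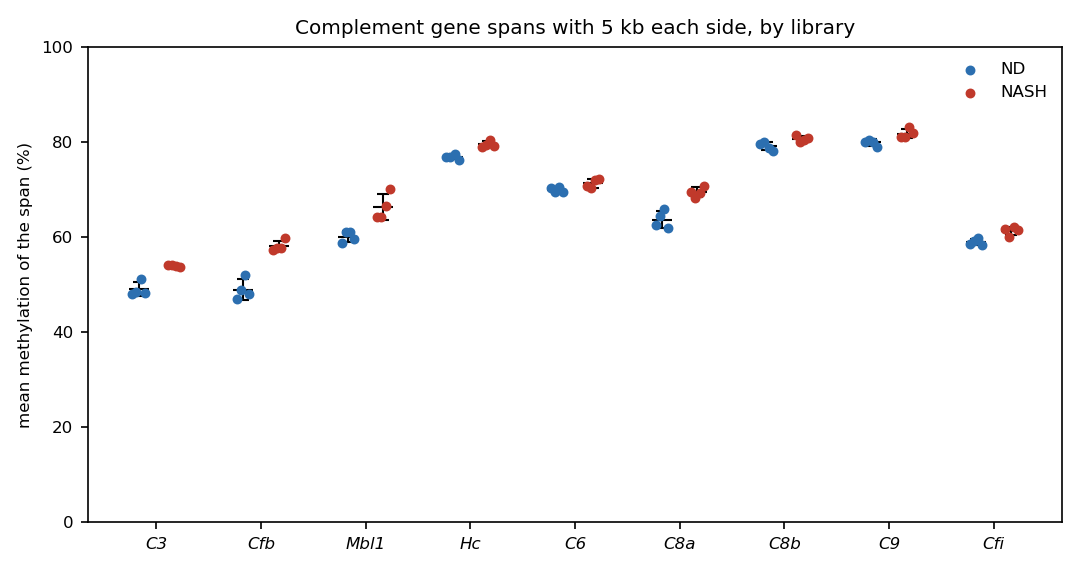
Mean methylation of each gene span with 5 kb on each side, in percent, for the 4 ND and the 4 NASH libraries; points are libraries, black bars are the mean ± SD. NASH points lie above ND points in 7 of the 9 genes, and the widest gap is at Cfb.

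The 250 bases before the RefSeq start were read for the 7 genes with an entry in the RefSeq promoter table (GRCm38.p6). These stretches were CpG-poor: C9 and Mbl1 had 0 CpGs, C3 had 1, Hc and C8a had 2, and C6 and C8b had 4. The median over 32851 promoters was 6, and 37.8% of them had 3 or fewer. The sequences of C3, Hc, C8a and C6 are shown because their few CpGs, in capitals, are the ones whose levels are given below. They run 5′ to 3′ on the gene's strand and end at the base before the start.
C3, minus strand, chr17:57228137-57228386: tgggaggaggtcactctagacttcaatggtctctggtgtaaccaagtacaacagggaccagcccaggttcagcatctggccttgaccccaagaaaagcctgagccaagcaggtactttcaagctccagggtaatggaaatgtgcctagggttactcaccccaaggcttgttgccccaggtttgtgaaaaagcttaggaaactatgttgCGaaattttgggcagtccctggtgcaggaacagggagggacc
Hc, minus strand, chr2:35061413-35061662: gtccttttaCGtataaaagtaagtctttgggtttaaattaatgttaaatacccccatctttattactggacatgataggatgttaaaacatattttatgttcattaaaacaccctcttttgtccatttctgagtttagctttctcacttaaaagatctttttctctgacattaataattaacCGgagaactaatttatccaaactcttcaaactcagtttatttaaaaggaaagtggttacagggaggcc
C8a, minus strand, chr4:104876399-104876648: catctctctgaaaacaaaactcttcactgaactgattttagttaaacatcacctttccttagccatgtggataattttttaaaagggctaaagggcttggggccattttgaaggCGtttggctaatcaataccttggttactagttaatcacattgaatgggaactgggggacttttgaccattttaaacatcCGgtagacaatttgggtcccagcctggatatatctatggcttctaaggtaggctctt
C6, plus strand, chr15:4726960-4727209: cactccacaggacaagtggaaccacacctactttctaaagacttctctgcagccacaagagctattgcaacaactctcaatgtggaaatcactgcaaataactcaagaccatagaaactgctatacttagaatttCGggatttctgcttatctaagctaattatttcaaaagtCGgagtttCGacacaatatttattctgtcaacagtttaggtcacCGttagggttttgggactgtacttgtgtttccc

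Motifs were searched on both strands of these stretches. The C/EBP motif TTGCNNAA, held by 9.56% of all promoters, was found in C3 at bases -45 to -38 from the start, where it contains the single CpG, and in C9 at -132 to -125. The HNF1 motif GTTAAT (6.43% of promoters) was found in Hc at -74 to -69, next to its CpG at -68, in C8a at -107 to -102 and in C8b at -206 to -201. The STAT motif TTCNNNGAA (7.02%) was in C8a at -228 to -220, and TATAAA (12.4%) in Hc at -239 to -234. The HNF4 motif CAAAGTCCA (0.384%) was not among these letters. C/EBP, HNF1, HNF4 and STAT factors are regulators of liver genes, and these matches only describe the letters.

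At single promoter CpGs, each the mean of its 2 cytosines and with every 0 kept, levels were higher in NASH at all 13 CpGs of the 5 genes that have any. The groups did not overlap at 2 of them. Over 208134 such promoter CpGs, 26.3% were higher in NASH and 0.423% were higher without overlap, but their median level in ND was 0%. Over the 18067 CpGs in promoters with 4 or fewer, whose median ND level was 73.7%, the shares were 44.8% and 2.46%. The Hc CpG at -68 was at 39.3%, 42.9%, 38.7% and 67.9% in NASH and at 29.3%, 34.3%, 23.7% and 31.5% in ND (exact permutation p = 0.0286, two-sided; 0.186 adjusted over the 13 CpGs). The C8a CpG at -136 was at 18.2%, 18.3%, 26.7% and 33.1% in NASH and at 15.0%, 16.7%, 11.1% and 4.55% in ND (exact permutation p = 0.0286; 0.186 adjusted). An unadjusted 0.0286 is the smallest p that the 70 groupings of 4 against 4 libraries allow. The C3 CpG inside the C/EBP motif was at 40.5%, 21.4%, 0% and 16.7% in NASH and at 7.14%, 15.0%, 8.33% and 0% in ND, so the groups overlapped. The 4 CpGs of C6, at -115, -77, -69 and -33, averaged 20.9%, 36.9%, 28.1% and 21.7% in NASH and 14.7%, 9.98%, 7.85% and 7.43% in ND, with overlap at each. The remaining Hc CpG at -241 averaged 46.8% and 22.1%, and that of C8a at -57 averaged 52.3% and 39.9%, both with overlap. Between libraries the spread at single CpGs was wide: the 4 CpGs of C8b ranged from 0% to 56.3% in ND.

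C3, the component on which the pathways converge, lies on the minus strand at chr17:57203967-57228136 and holds the microRNA gene Mir6978. Over its span the levels were 54.2%, 54.3%, 54.0% and 53.8% in NASH and at 48.1%, 48.5%, 51.3% and 48.2% in ND. All 4 NASH libraries lay above all 4 ND libraries. The difference was 5.04 points (SE 0.717, limma adjusted p = 0.00395). The part more than 5 kb inside the gene rose from 57.1% to 62.4% (limma adjusted p = 0.0442), and the 5 kb after the gene from 49.7% to 56.6% (limma adjusted p = 0.0293). Without 1 library, the first was called in 0 and the second in 1 of 8 fits. The kilobase on either side of the start was at 28.6% ± 6.42 in NASH and 24.8% ± 4.94 in ND, and the groups overlapped. Of its 1 kb windows, that with the smallest adjusted p (chr17:57212001-57213000) was at 69.5% and 55.3% (limma adjusted p = 0.205), and the lowest in ND (chr17:57229001-57230000) was at 25.0% and 19.6%.

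Cfb encodes factor B, the protease part of the alternative pathway convertase, and lies at chr17:34856374-34862514 between Nelfe and C2, both of which fall in its flanks. Its span was at 57.3%, 57.7%, 57.7% and 59.8% in NASH and at 46.9%, 48.9%, 52.0% and 48.0% in ND. Every NASH library was above every ND library. The difference of 9.18 points (SE 1.06, limma adjusted p = 0.0015) was the largest of the 9 genes. RefSeq promoter entries for Cfb and Cfi were not used here, so their ends are named low and high by coordinate. In Cfb the last 2 kb up to the high end, which faces C2, averaged 41.2% ± 6.02 in NASH and 25.6% ± 5.27 in ND. The 5 kb below the low end, over Nelfe, averaged 59.9% ± 2.7 and 49.2% ± 2.95. The window with the smallest adjusted p, chr17:34861001-34862000, was at 45.5% and 26.1% (limma adjusted p = 0.217). The neighbouring window, chr17:34862001-34863000, was the lowest in ND, at 13.4%, and stood at 10.3% in NASH.

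Cfi encodes factor I, the protease that inactivates C3b and C4b, and lies at chr3:129836727-129875332. The lncRNA gene Gm36180 lies inside it, and Pla2g12a begins in its upper flank. The Cfi span was at 61.6%, 60.1%, 62.1% and 61.5% in NASH and at 58.6%, 59.1%, 59.9% and 58.3% in ND. The groups did not overlap, though the lowest NASH and the highest ND library were close. The difference of 2.36 points (SE 0.573, limma adjusted p = 0.0349) lost its call in 6 of the 8 fits without 1 library. It also lost the call with the gene span alone, at 76.9% in NASH and 74.3% in ND (limma adjusted p = 0.0661). The 5 kb above the high end held 290 of the 1196 positions, at 24.2% and 21.5%. The first 2 kb from the low end were at 32.7%, 36.8%, 38.3% and 37.1% in NASH and at 20.1%, 13.2%, 20.5% and 19.6% in ND. The groups did not overlap there, with a difference of 17.9 points (exact permutation p = 0.0286, two-sided), while the middle of the gene was at 79.9% ± 1.24 and 78.6% ± 0.861. Its window with the smallest adjusted p, chr3:129837001-129838000, was at 35.0% and 19.5% (limma adjusted p = 0.101). The window lowest in ND, chr3:129879001-129880000, lies in Pla2g12a and was at 5.25% and 4.89%.

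Mbl1 encodes a mannose-binding lectin of the lectin pathway and lies on the plus strand at chr14:41151456-41163904. The Mbl1 span was at 64.3%, 64.3%, 66.6% and 70.2% in NASH and at 58.7%, 61.1%, 61.0% and 59.7% in ND. All 4 NASH libraries were higher than all 4 ND libraries. The difference was 6.24 points (SE 1.27, limma adjusted p = 0.0179), and the adjusted p was 0.0573 without ND replicate 1 and 0.0502 without ND replicate 4. The part more than 5 kb inside the gene rose from 49.4% to 60.0% (limma adjusted p = 0.0436), a call that held in 1 of the 8 fits without 1 library. Around the start the groups overlapped, at 39.4% ± 6.33 in NASH and 26.0% ± 5.97 in ND (limma adjusted p = 0.0818). Mbl1's window with the smallest adjusted p, chr14:41159001-41160000, was at 59.5% and 40.2% (limma adjusted p = 0.104). The window lowest in ND, chr14:41152001-41153000, was at 35.6% and 23.9% with overlapping groups.

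Hc encodes C5, whose cleavage starts the membrane attack complex and releases C5a. The gene spans chr2:34983329-35068506 and its RefSeq promoter entry starts on the minus strand at 35061412. The lncRNA genes Gm52552 and Gm39794 overlap its ends. Over the Hc span the libraries were at 79.0%, 79.5%, 80.4% and 79.2% in NASH and at 76.9%, 76.9%, 77.6% and 76.2% in ND. The groups did not overlap, and the difference was small at 2.62 points (SE 0.467, limma adjusted p = 0.0101). It was larger near the start. Between 1 and 5 kb inside, the libraries were at 54.8%, 56.1%, 59.5% and 58.0% in NASH and at 47.8%, 45.7%, 49.6% and 48.5% in ND, a rise of 9.2 points (SE 1.46, limma adjusted p = 0.0153) that was called in all 8 fits without 1 library. The kilobase on either side of the start was at 36.8% ± 6.32 and 26.3% ± 1.96, and the 4 kb upstream of it at 61.2% ± 4.4 and 51.0% ± 3.62. The groups did not overlap in either, but neither passed (limma adjusted p = 0.0791 and 0.0616). Those 4 kb, chr2:35062413-35066412, lie before the start used but still inside the gene span, and they overlap Gm39794. More than 5 kb inside, where most of its positions lie, the gene was at 82.4% and 80.6%. Hc's window with the smallest adjusted p, chr2:35058001-35059000, was at 53.1% and 34.5% (limma adjusted p = 0.101), and the lowest in ND, chr2:35061001-35062000, was at 31.9% and 20.8%.

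C8a encodes the alpha chain of C8, which inserts into the target membrane. It lies on the minus strand at chr4:104815679-104876487, and Fyb2 overlaps it. The C8a span was at 69.6%, 68.1%, 69.3% and 70.8% in NASH and at 62.5%, 64.5%, 66.0% and 61.9% in ND. The groups did not overlap, and the difference was 5.74 points (SE 0.945, limma adjusted p = 0.00732). Between 1 and 5 kb inside the gene the levels were 48.2%, 44.3%, 50.6% and 49.3% in NASH and 29.8%, 28.2%, 33.7% and 29.7% in ND. The lowest NASH library stood above the highest ND library by more than the range within either group. This rise of 17.8 points (SE 1.72, limma adjusted p = 0.00545) was called under all 16 alternatives tried. Upstream, from 5 to 1 kb before the start, the level was 85.8% ± 1.99 in NASH and 86.1% ± 0.907 in ND. The window chr4:104873001-104874000 had the smallest adjusted p of all 465 windows in the 9 genes, at 54.7% in NASH and 29.8% in ND (limma adjusted p = 0.0824). The window lowest in ND, chr4:104849001-104850000, was at 0% in all 4 ND libraries and at 42.9%, 21.4%, 0% and 57.1% in NASH. That window lies where levels are often only 0 or 100: 13.2% of the positions of C8a had no level between these values in any library and a 0 in at least 1. Without such positions the C8a span differed by 5.34 points (limma adjusted p = 0.00399).

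C8b, the beta chain of C8, lies near C8a on the same chromosome, on the plus strand at chr4:104766317-104804548. Its span was at 81.5%, 80.0%, 80.4% and 80.8% in NASH and at 79.6%, 80.1%, 78.8% and 78.2% in ND. The groups overlapped, and the difference of 1.49 points (SE 0.541) did not pass (limma adjusted p = 0.127). Between 1 and 5 kb inside, the groups did not overlap, at 71.1% ± 1.71 and 63.7% ± 4.62, again without passing (limma adjusted p = 0.106). From 5 to 1 kb upstream, NASH was lower, at 79.2% ± 1.59 against 82.6% ± 1.27 with no overlap (limma adjusted p = 0.122). This was the only segment of the 35 tested in which NASH lay below ND without overlap. In C8b, the window with the smallest adjusted p, chr4:104767001-104768000, was at 55.3% and 29.5% (limma adjusted p = 0.0957), and the lowest in ND, chr4:104779001-104780000, was at 32.6% and 17.2%.

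C6, which binds C5b early in assembly of the complex, lies on the plus strand at chr15:4727067-4804045. The C6 span was at 70.7%, 70.3%, 72.1% and 72.2% in NASH and at 70.4%, 69.5%, 70.5% and 69.6% in ND. The groups overlapped, and the difference of 1.34 points (SE 0.555) did not pass (limma adjusted p = 0.174). At the start the libraries were at 45.9%, 38.6%, 52.8% and 47.6% in NASH and at 29.7%, 36.0%, 31.1% and 30.6% in ND. NASH lay wholly above ND, and the rise of 14.4 points (SE 2.82) was called (limma adjusted p = 0.0285). It was called in 2 of the 8 fits without 1 library. The part from 1 to 5 kb inside, with 16 positions, rose from 57.1% to 68.1% (limma adjusted p = 0.0433), and was called in 1 of those 8 fits. In C6, the window with the smallest adjusted p, chr15:4728001-4729000, was at 47.1% and 29.3% (limma adjusted p = 0.129). The window lowest in ND, chr15:4771001-4772000, was at 0% in all 4 ND libraries and in 3 of the 4 NASH libraries. In C6, 10.7% of positions were at 0 in all 8 libraries, and such values can stand for positions without reads.

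C9, the component that polymerises into the pore, lies on the plus strand at chr15:6445346-6498825, with Dab2 reaching into its upstream flank. Over the C9 span the libraries were at 81.1%, 81.1%, 83.1% and 82.0% in NASH and at 80.1%, 80.5%, 80.1% and 79.0% in ND. The groups did not overlap, but the difference of 1.88 points (SE 0.572) did not pass (limma adjusted p = 0.0765). Its start was the only gene end of the 9 genes to be called, an end being 1000 bases outside to 500 inside the gene. Over 12 positions, it was at 41.6%, 39.1%, 32.3% and 47.3% in NASH and at 22.7%, 20.8%, 23.7% and 22.3% in ND. The lowest NASH library was above the highest ND library, a rise of 17.7 points (SE 2.85, limma adjusted p = 0.0459). This end kept its call in 1 of the 8 fits without 1 library, with adjusted p from 0.0481 to 0.128. From 1 to 5 kb inside, C9 rose from 38.0% to 50.5% (limma adjusted p = 0.0454), with 1 NASH library below the highest ND library, and was called in 1 of the 8 fits. Further inside, C9 was at 88.8% ± 1.04 and 88.9% ± 0.341. In C9, the window with the smallest adjusted p, chr15:6447001-6448000, was at 53.8% and 35.2% (limma adjusted p = 0.0953), and the lowest in ND, chr15:6445001-6446000, was at 41.4% and 22.4%.

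Along the 7 genes with a known start and strand, the median difference was larger near and shortly after the start than elsewhere, but not every gene followed the medians. In the kilobase on either side of the start, all 7 were higher in NASH with a median of 10.5 points, and from 1 to 5 kb inside all 7 were higher with a median of 9.2. The medians were -0.28 from 5 to 1 kb upstream, 1.82 in the rest of the gene and 2.35 in the 5 kb after it. C3 ran the other way, with 3.85 points at the start, 4.1 from 1 to 5 kb inside, 5.32 in the rest of the gene and 6.91 after it. In Mbl1 the rest of the gene (10.6) differed more than the part from 1 to 5 kb inside (5.34), and in C8a the start (5.23) differed about as much as the rest of the gene (5.94). Distance itself was not tested. Over all genes the medians of these 5 segments lay between -0.46 and -0.15. In all, 9 of the 35 segments of these genes rose and none fell past the threshold, while 4.1% of all 65241 segments were called. The NASH libraries lay above ND without overlap in 15 of the 35, against 7.28% of all segments. All segments include those at any level, and segments of like level were not compared. The segments were added after the data had been seen, and without 1 library 2 to 4 of the 35 were called. With every 0 left out 1 was, from 1 to 5 kb inside C8a.

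**Figure D2:**
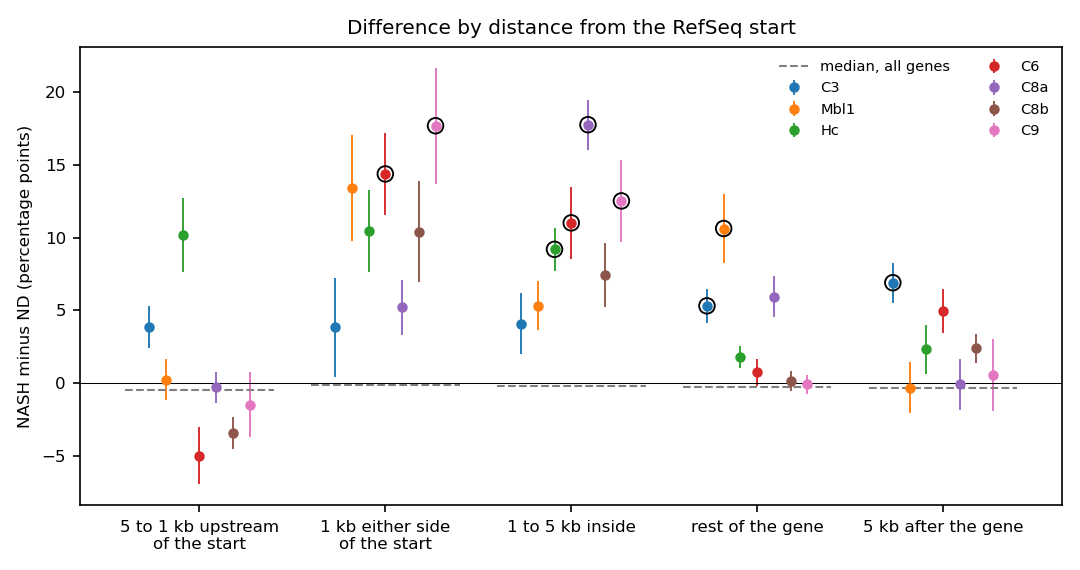
NASH minus ND in percentage points (vertical) for 5 segments by distance from the RefSeq start (horizontal) in 7 genes; points are limma estimates, bars are SE, open black rings mark an adjusted p under 0.05 and dashed lines are the median over all genes. All 7 genes lie above 0 at the start and from 1 to 5 kb inside. The genes behind the dashed lines were not matched for level.

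**Figure D3:**
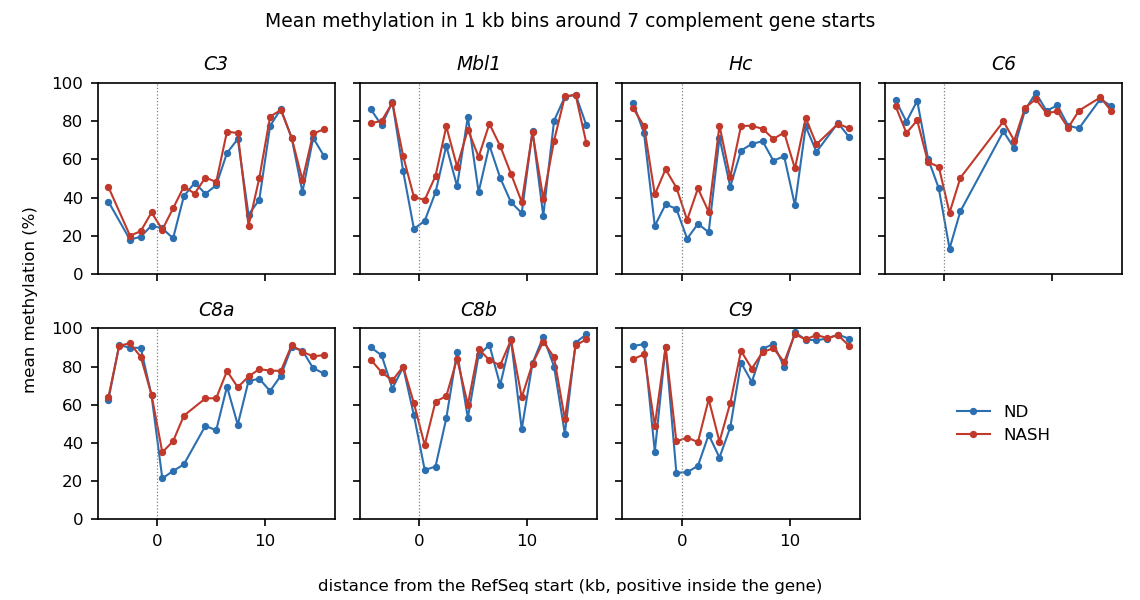
Group mean methylation in percent in 1 kb bins against distance from the RefSeq start in kb, for ND (blue) and NASH (red); lines join bins, and bins without enough positions are skipped. NASH lies above ND in most bins of the low stretch after the start, and in C8a the lines run together upstream.

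Of the 17 gene ends that could be tested, 14 were higher in NASH, 6 of them without overlap, and the C9 start was the 1 call. Over all 28752 ends, 0.31% were called and 4.31% were higher without overlap. The shares over all ends and all wider ends were not matched for level or CpG content. The high end of Hc had fewer than 6 positions. With ends reaching 2000 bases either way, 6 of 18 were called, all higher, against 3.06% of all such ends. These were the low ends of Cfi (9.41 points, limma adjusted p = 0.00651), Cfb (12.0, 0.00915), C6 (11.7, 0.0114), C8b (11.2, 0.0239), Mbl1 (11.5, 0.0317) and C9 (12.7, 0.0384). C6, C8b, Mbl1 and C9 lie on the plus strand, so their low end is the start. No 1 kb window passed in limma, in the 9 genes or among all 1597864 windows, of which 169509 had an unadjusted p under 0.05. In the 9 genes, 121 of 465 windows had an unadjusted p under 0.05, 102 of them higher in NASH, and over all windows 4.17% were higher at that level.

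Part of the difference lay in positions at exactly 0. The share of positions at 0 was lower in NASH in all 9 genes, without overlap in 6 of them. Over all spans the share was lower in 67.2% and lower without overlap in 9.03%. The share was 13.5% ± 0.637 in NASH and 18.9% ± 2.43 in ND for C3, 10.9% ± 1.45 and 16.2% ± 2.02 for C8a, 4.68% ± 1.04 and 8.99% ± 1.32 for Mbl1, and 1.79% ± 0.448 and 3.24% ± 0.151 for Hc. Among positions above 0 the mean was higher in NASH without overlap in 2 genes, Hc (81.0% ± 0.709 and 79.5% ± 0.514) and C8a (78.0% ± 0.506 and 76.1% ± 0.481). Over all spans this mean was higher without overlap in 3.6% and higher at all in 25.4%. For C3 these means were 62.5% ± 0.595 and 60.5% ± 2.06 with overlap. A 0 can be an unmethylated position or one without reads, and the table, which holds no read counts, does not tell which.

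The other genes of the pathway were read from a list by role. Of 46 listed, 34 could be tested. Over the span, 7 rose and none fell, and 19 were higher. Over all spans, 5.99% were called higher and 39.8% were higher. Calls were made for 5 of 17 regulators and 2 of 5 convertase or terminal components. There were 0 among 11 initiation and lectin pathway genes and 0 of 1 receptor genes. At the share over all spans, a class of 11 genes can easily hold no call. In that class 4 genes were higher, among them Mbl2 (3.52 points, limma adjusted p = 0.06) and Masp2 (2.43, 0.0647), both without overlap. The median difference of the 34 genes was 0.27 points. Among regulators, Cpn2, a subunit of the carboxypeptidase that trims anaphylatoxins, rose by 7.82 points (limma adjusted p = 0.0108), Serping1, the C1 inhibitor, by 6.03 (0.00144), and Vtn, vitronectin, by 5.68 (0.00619). C4bp, the C4b-binding protein, rose by 3.94 (limma adjusted p = 0.0314) and Clu, clusterin, by 3.85 (0.0226). Of the convertase components, C4b rose by 6.95 (limma adjusted p = 0.0135) and C2 by 4.63 (0.00562). The extended span of C2 overlaps that of Cfb, and C4b has a close copy, so reads may be shared.

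Genes of the C1q chains, which macrophages make, lay on the other side of 0 without passing. That side was the more common one, as 39.8% of all spans were higher in NASH. In the list by role, 19 of 34 genes were higher. Those lower also included Colec11 (-1.98 points), Fcnb (-1.69) and Fcna (-1.58), which were not called. The extended spans of C1qb and C1qc overlap, as do those of C1qc and C1qa. C1qa, C1qb and C1qc differed by -1.85, -1.39 and -2.0 points, with overlapping groups in each (limma adjusted p = 0.245, 0.387 and 0.324). C7, which joins the complex after C6, was at 75.8% in NASH and 76.3% in ND.

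**Figure D4:**
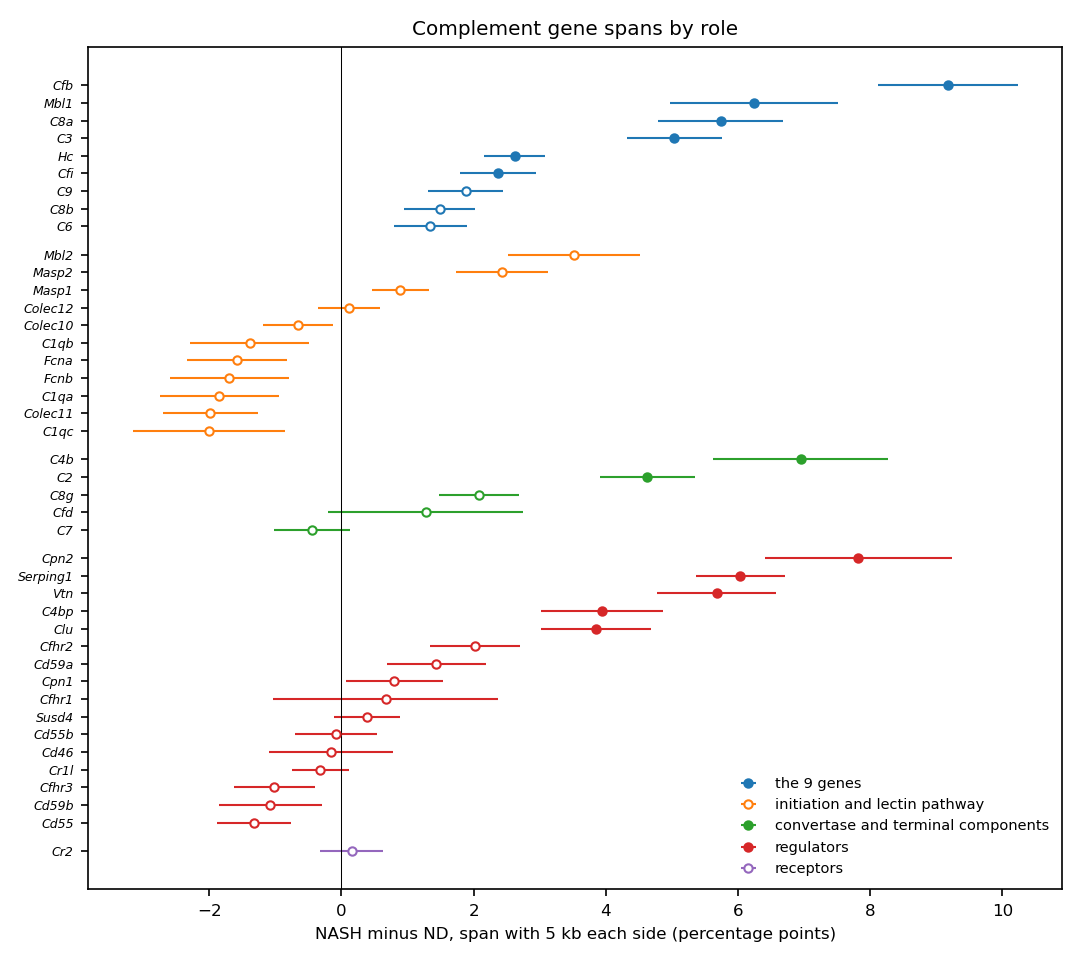
NASH minus ND of the gene span with 5 kb on each side, in percentage points, for the 9 genes and 33 other complement genes by role; bars are SE, and filled points have an adjusted p under 0.05 over all spans. Filled points lie only above 0, and the 11 initiation and lectin pathway genes have none, while 5.99% of all spans were called higher.

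The levels of liver cell type markers are given beside these results. All 10 hepatocyte markers rose over their spans, and their mean level was 57.3% to 60.8% in NASH and 49.8% to 50.4% in ND, a difference of 8.55 points. In ND the median span level was 52.7% for hepatocyte markers, 63.7% for the 9 complement genes and 67.9% for all genes. None of the 9 macrophage, 6 neutrophil, 3 lymphocyte, 5 endothelial, 7 stellate or 5 cholangiocyte markers tested rose. The calls lower were 1, 2, 0, 0, 1 and 1 in that order, and the macrophage list shares C1qa and C1qb with the complement list. Of all 14683 spans, 5.99% were called higher and 491 spans were called lower, so lists this short can hold few calls or none. Mean levels were 66.6% to 67.1% in NASH and 68.1% to 69.2% in ND for macrophage markers, and 69.3% to 70.2% and 71.1% to 73.1% for neutrophil markers. For lymphocyte, endothelial, stellate and cholangiocyte markers the means differed by -1.78, -1.24, -1.18 and -0.63 points with overlapping libraries. The part of cell composition in the complement results was not tested.

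By likeness to the mean of the 9 spans over the 8 libraries, the nearest of the other gene spans were Nudt4, Nsun2, Fads1, Sdc1 and Hoxb5. Likeness was the root mean square difference after each profile was centred, and it ran from 0.408 points for Nudt4 to 0.524 for Hoxb5. Fads1, a fatty acid desaturase gene, was at 58.0% ± 0.957 in NASH and 54.2% ± 0.746 in ND.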

How the data were processed

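The authors deposited 1 table with the percent methylation of each cytosine of a CpG, each strand on its own row, in 8 libraries, without read counts. The depth is therefore unknown, and no interval or floor was computed. FastQC and the build mm10 are named per the submitters' processing notes; which aligner and caller were used is not given in the sources used here. Rows were read for 15 placed chromosomes; 326824 positions on 85 contigs and 1 incomplete line were left out. Library means were 71.0% to 72.3%, and 12.3% to 13.1% of positions were 0.

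Gene spans came from RefSeq GRCm38.p6, and starts and strands from its promoter table, which held 7 of the 9 genes. Listed positions lie 1 base above RefSeq coordinates: with that shift both cytosines of 100% of 290334 promoter CpGs were listed, and 10.4% without it. The shift was applied to single CpGs. Region values were unweighted means of at least 6 positions. Regions without spread within either group were left out, a choice made after seeing the data, as were the gene segments. limma 3.58.1 (R 4.3.3) with a mean-dependent prior was fitted to all regions of a kind, with group as the only term and Benjamini-Hochberg adjustment; single values got exact two-sided permutation tests. Python 3.11.15, numpy 2.4.6 and pandas 2.3.3 were also used. The fit was tested on simulated data.

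The genes and lists were chosen with earlier results of these data known. By rule, all 9 genes were named, with the window of smallest adjusted p and the window lowest in ND in each, the called genes among the other complement genes, and the 5 nearest profiles. The C1q genes and C7 were named after their values were seen. The values of 1 gene of the list are not reported here. Alternatives were a replicate block, a logit scale, 2 ways of leaving out zeros, centring, at least 20 positions, other region bounds, each library left out, and positions with only 0 and 100 left out.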

Additional observations from a re-analysis of the deposited data

Results flagged for a closer look

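In 4 of 52 groups of 4 libraries, 1 library stood apart from the other 3 by Dixon's criterion, which chance meets in about 1 in 20 groups. Over the Cfb span, NASH replicate 4 was at 59.8%, and the nearest other NASH library was at 57.7%. Over the C3 span, ND replicate 3 was at 51.3% with the nearest at 48.5%. At the low end of C3, its far end, NASH replicate 3 was at 47.3% with the nearest at 54.9%. At the start of C8a, its high end, NASH replicate 1 was at 55.5% with the nearest at 61.3%. Without 1 library, C3 and Cfb kept their span calls in all 8 fits.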

How the results depend on the processing

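All 9 spans stayed higher in NASH under every alternative except C8b with every zero left out (-0.0026 points), and none reversed a call. The number of complement spans called was 6, with 5 under the replicate block (Cfi lost, limma adjusted p = 0.062), 8 after centring each library, and 4 to 6 without 1 library. With the gene span alone it was again 6, with Cfi lost (limma adjusted p = 0.0661) and C9 gained (limma adjusted p = 0.0434). With every zero left out it was 0, the mean difference of the 9 spans was 1.82 against 3.99 points, 1 other complement gene was called against 7, and all spans called were 631 against 1370; the cause was not tested. Calls higher and lower over all spans were 879 and 491, then 1176 and 305 after centring and 153 and 478 with every zero left out. Without 1 library, all spans called were 773 to 1460. All ends called were 89, with 0 under the replicate block, 278 on the logit scale, 0 with every zero left out, 239 after centring, 3 with regions without spread kept, 393 without positions of only 0 and 100, 891 with ends of 2000 bases either way and 2 to 17 without 1 library. Complement ends called were 1, with 0 under the replicate block, with doubtful zeros out (a 0 whose 10 nearest positions had a median of 50% or more), with every zero out, with at least 20 positions and with regions without spread kept, 2 after centring, 3 without positions of only 0 and 100, 6 with wider ends and 0 to 1 without 1 library. All windows called were 0, with 11 on the logit scale, 127 with doubtful zeros out, 1687 with every zero out, 1552 with at least 20 positions, 7 with regions without spread kept, 1616 without positions of only 0 and 100 and 0 to 2 without 1 library. Complement windows called were 0, with 2 under at least 20 positions and 2 without positions of only 0 and 100. All segments called were 2676, with 362 under the replicate block, 505 with every zero out and 972 to 1856 without 1 library. Complement segments called were 9, with 1 under the replicate block, 1 with every zero out, 5 with regions without spread kept and 2 to 4 without 1 library. Over gene ends, the deviations of same-numbered libraries had correlations of only 0.0038, 0.0217, 0.0285 and 0.00274, and the main fit did not pair them. Between NASH and ND libraries of different number the correlations ran from -0.0388 to 0.0201. On the second principal component of the ends, libraries by replicate number lay at 90.2, 411, -390 and -120 in NASH. In ND they lay at 22.3, 254, -143 and -125. Replicate 3 had the highest and replicate 2 the lowest library mean in both groups. Whether the numbers mark pairs was not tested. The depth behind each level is unknown, and zeros may stand for positions without reads.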
